A study of Mus musculus with 33 samples.

Results

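H19 and a set of imprinted or oncofetal genes were followed in mouse liver across a deletion of G6pc and a knockdown of the glucose-sensing transcription factor ChREBP. The set holds 10 genes, namely H19, Igf2, Afp, Gpc3, Cdkn1c, Grb10, Plagl1, Peg3, Mest and Dlk1, which were matched by gene symbol. Of these, 9 had a row in the count table of 25988 genes, and the level of Dlk1 was not analysed here. A filter on low counts kept 10179 genes and 4 of the members (H19, Peg3, Grb10 and Mest). The members were chosen from gene results of these same libraries, with no contrast named, so their values in every contrast are given as a description and without p-values.

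Imprinted genes are expressed from the maternal or the paternal copy alone, and many of them are active in the fetus and silenced after birth. H19 is a long noncoding RNA made from the maternal copy. Its neighbour Igf2, a fetal growth factor, is made from the paternal copy, and the pair share enhancers and an insulator bound by CTCF. In mouse liver H19, Igf2, Afp and Gpc3 are abundant in the fetus and repressed after birth, and they can return in regenerating liver and in liver tumours, for which the name oncofetal is used.

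Livers of 4 groups of male C57BL/6J mice, aged 13 to 18 weeks when they received the hairpin, were compared, shChREBP/L-G6pc-/- (n = 9 libraries), shSCR/L-G6pc-/- (n = 8), shChREBP/L-G6pc+/+ (n = 8) and shSCR/L-G6pc+/+ (n = 8). L-G6pc-/- livers lack glucose-6-phosphatase after recombination by a tamoxifen-inducible Cre driven by the albumin gene, and L-G6pc+/+ livers come from littermates with the floxed gene and no Cre. Mice of every group received an intravenous AAV carrying a short hairpin RNA against ChREBP (shChREBP) or a scrambled one (shSCR), then tamoxifen for 5 days, and nonfasted livers were taken 10 days after the last injection. Nothing in the labels ties every library to a mouse of its own, so n counts libraries and p-values measure the spread between libraries.

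The 3' end libraries held between 1497843 and 3546852 counts each (median 2141043), so that 3 counts corresponded to 0.834 to 1.998 CPM (counts per 1000000, scaled by TMM). CPM of these 3' tags count transcript ends and are not divided by length. Mlxipl, the gene of ChREBP, averaged 386 ± 112 CPM in shChREBP/L-G6pc-/-, 574 ± 45.4 CPM in shSCR/L-G6pc-/-, 366 ± 49.9 CPM in shChREBP/L-G6pc+/+ and 535 ± 57.5 CPM in shSCR/L-G6pc+/+ livers (SD). Pklr (liver pyruvate kinase), which ChREBP activates, averaged 210 ± 49.5, 314 ± 68.3, 69.2 ± 15.4 and 123 ± 36.7 CPM in the groups in that order (SD). G6pc reads averaged 346 ± 192 CPM in shSCR/L-G6pc-/- and 236 ± 86.4 CPM in shSCR/L-G6pc+/+ livers (SD), and 3' tags may lie outside the deleted part, so they do not check the genotype. All 8 hepatocyte markers were counted in every library. Among shChREBP/L-G6pc-/- livers 4 libraries (s29, s30, s32, s33) stood apart on the first principal component (14.7% of the variance), at 26.8 to 35.6 against -1.47 to 7.70 for the other 5 libraries of that group, and results that rest on them are given with and without them.

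The counts of H19 come from the 3' end of its transcript, and the sequences below show that end and the miRNA that H19 carries. H19 lies on chromosome 7 of GRCm38 from 142575529 to 142578143 on the minus strand and is annotated as a lincRNA, without a coding region. Its transcript in the annotation has 5 exons and 2286 bases, and the last 120 bases, in exon 5 at chr7:142575529-142575648, read as follows (polyadenylation signal in capitals, 16 bases before the end; GENCODE M21).
H19: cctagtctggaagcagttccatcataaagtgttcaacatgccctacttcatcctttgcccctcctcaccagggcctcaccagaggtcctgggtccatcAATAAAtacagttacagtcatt
Exon 1 holds the miR-675 hairpin, whose mature arms are given from RefSeq (GRCm38.p6, minus strand) with the seed, bases 2 to 8, in capitals. The arms lie at chr7:142577112-142577133 (5p) and chr7:142577078-142577099 (3p).
mmu-miR-675-5p: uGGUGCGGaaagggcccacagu
mmu-miR-675-3p: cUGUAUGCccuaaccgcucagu
The mature arms have different seeds. Their levels were not measured in these libraries, whose counts stand for the polyadenylated host transcript.

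H19 was present in every L-G6pc-/- liver and close to absent in L-G6pc+/+ livers, with either hairpin. The shChREBP/L-G6pc-/- libraries held 22, 29, 10, 14, 8, 13, 18, 9 and 29 H19 counts, and the shSCR/L-G6pc-/- libraries held 7, 6, 4, 23, 7, 17, 21 and 25. In shChREBP/L-G6pc+/+ livers 6 libraries were at 0 and the other 2 held 1 and 5 counts, and in shSCR/L-G6pc+/+ livers 6 libraries were at 0 and the other 2 held 2 and 3. Over both hairpins this made 262 counts in 17 L-G6pc-/- libraries, each with at least 4, and 11 counts in 16 L-G6pc+/+ libraries, 12 of which were at 0.

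In CPM, H19 averaged 7.05 ± 3.19 in shChREBP/L-G6pc-/- (lowest 3.52, median 6.47, highest 12.4), 6.85 ± 4.38 in shSCR/L-G6pc-/- (2.23, 5.74 and 14.6), 0.384 ± 0.897 in shChREBP/L-G6pc+/+ (0, 0 and 2.56) and 0.218 ± 0.405 in shSCR/L-G6pc+/+ livers (0, 0 and 0.913; SD). In order of level, the L-G6pc-/- groups did not differ beyond their spread, and neither did the L-G6pc+/+ groups. Between genotypes the groups did not overlap with shSCR, and with shChREBP the lowest L-G6pc-/- library lay above the highest L-G6pc+/+ library. In bulk liver, more cells of a type and more RNA per cell cannot be told apart.

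**Figure D1:**
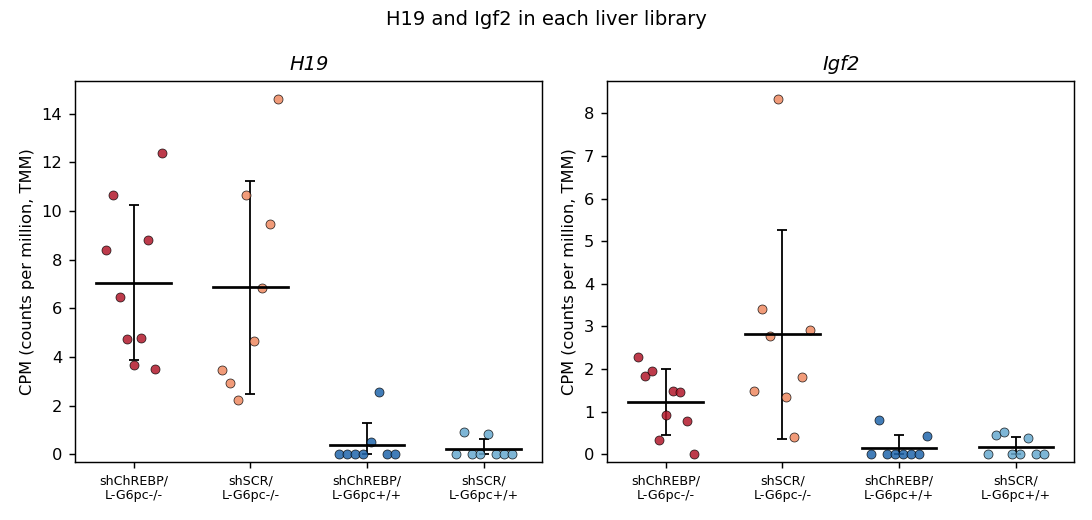
H19 (left) and Igf2 (right) in CPM (vertical axis) for each liver library, by group; points are libraries, the horizontal line is the mean and the bar is the SD, cut at 0. The H19 points of both L-G6pc-/- groups lie between 2.23 and 14.6 CPM, against 0 to 0.913 CPM in shSCR/L-G6pc+/+ livers and 0 to 2.56 CPM in shChREBP/L-G6pc+/+ livers.

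The fitted log2 fold change of H19 was 4.47 for shSCR/L-G6pc-/- over shSCR/L-G6pc+/+ (SE 0.62, 95% interval 3.22 to 5.72) and 4.05 for shChREBP/L-G6pc-/- over shChREBP/L-G6pc+/+ (SE 0.59, 2.85 to 5.24). These stood at rank 2 and rank 4 from the highest among 10179 genes. H19 passed the low-count filter through its L-G6pc-/- libraries, so a difference was built into its being tested. As a ratio of pooled counts, H19 was 26.5 times higher with shSCR (95% interval 11.01 to 83.2, from 110 and 5 counts) and 18.9 times higher with shChREBP (8.47 to 52.2, from 152 and 6 counts). Such intervals are exact binomial and cover counting error only.

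With ChREBP knocked down, the H19 level moved by less than the spread between libraries in each genotype. The log2 fold change of shChREBP over shSCR was 0.03 in L-G6pc-/- livers (SE 0.36), with a 95% interval of -0.70 to 0.76. In L-G6pc+/+ livers it was 0.45 (SE 1.03, -1.63 to 2.53), which rests on 6 and 5 counts. The difference between these knockdown effects, L-G6pc-/- minus L-G6pc+/+, was -0.42 (SE 1.06, -2.57 to 1.73) and could not be placed more closely at this depth.

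A few libraries carried the L-G6pc+/+ counts. Library s14 held 5 of the 6 H19 counts of shChREBP/L-G6pc+/+ livers, and without it the log2 fold change of shChREBP/L-G6pc-/- over shChREBP/L-G6pc+/+ was 5.81. Without library s5, which held 3 of the 5 counts of shSCR/L-G6pc+/+ livers, that of shSCR/L-G6pc-/- over shSCR/L-G6pc+/+ was 5.22. The knockdown effect in L-G6pc+/+ livers turned with these libraries, at -1.31 without s14 and 1.21 without s5.

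Library s14 also stood out for transcripts of skeletal muscle, a tissue in which H19 stays active in the adult mouse. It held 40 counts of Acta1 (skeletal muscle actin), 13 of Ckm (muscle creatine kinase), 19 of Tnni2 and 11 of Tnnt3 (fast muscle troponins). The highest counts among the other 32 libraries were 2, 1, 6 and 0 for these genes. Acta1 and Ckm were named after their values were seen, and the part of muscle RNA in the H19 counts of s14 was not tested. Without s14, 1 H19 count was left over 7 shChREBP/L-G6pc+/+ libraries.

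Igf2, which lies 72.6 kb from H19 at chr7:142650766-142666816 on the same strand, followed the genotype as well but at lower counts. The shChREBP/L-G6pc-/- libraries held 6, 5, 3, 1, 2, 4, 3, 2 and 0 Igf2 counts and the shSCR/L-G6pc-/- libraries held 3, 7, 5, 18, 2, 1, 4 and 5. In shChREBP/L-G6pc+/+ livers 2 of 8 libraries held a count (2 and 1), and in shSCR/L-G6pc+/+ livers 3 of 8 held 1 count each. This made 71 counts over 17 L-G6pc-/- libraries, 16 of them with a count, and 6 counts over 16 L-G6pc+/+ libraries, 5 of them with a count.

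The pooled Igf2 ratio was 18.1 for shSCR/L-G6pc-/- over shSCR/L-G6pc+/+ (95% interval 5.80 to 90.9, 45 and 3 counts) and 6.45 for shChREBP/L-G6pc-/- over shChREBP/L-G6pc+/+ (1.98 to 33.3, 26 and 3 counts). The second, 2.69 on the log2 scale, was 4.03 without library s10, which held 2 of the 3 shChREBP/L-G6pc+/+ counts. The ranges overlapped in both, with 7 of 8 and 6 of 9 L-G6pc-/- libraries above the highest L-G6pc+/+ library. For shChREBP over shSCR in L-G6pc-/- livers the pooled ratio was 0.425 (0.252 to 0.703, 26 and 45 counts), on a log2 scale -1.24. A single shSCR/L-G6pc-/- library, s20, held 18 of those 45 counts, and without it the log2 ratio was -0.71. Without the 4 libraries that stood apart it was -0.90.

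Reads over a part of Igf2 that another gene shares cannot be placed on it alone. The antisense gene Igf2os (chr7:142659693-142670356) overlaps the 5' part of Igf2 and not its 3' end at 142650766, the end that 3' tags count. Whether the counting used strand is not given in the sources used here. Igf2os itself held 6 counts over all L-G6pc-/- libraries and 0 over all L-G6pc+/+ libraries. Gm49394, which overlaps Igf2 on the same strand in a later annotation, was not analysed here.

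The neighbourhood of the pair was thinly transcribed. Of 22 annotated genes within 250 kb of H19, 11 had a row in the count table and 1 of them, Ctsd, passed the filter. Ctsd encodes the lysosomal protease cathepsin D and lies 187.5 kb away. It averaged 588 ± 93.4 CPM in shSCR/L-G6pc-/- and 445 ± 35.7 CPM in shSCR/L-G6pc+/+ livers (SD, n = 8 each), a log2 fold change of 0.40 (SE 0.11, adjusted p = 0.0271 from edgeR). With shChREBP it averaged 617 ± 124 CPM in L-G6pc-/- and 408 ± 38.8 CPM in L-G6pc+/+ livers, a log2 fold change of 0.60 (SE 0.11, adjusted p = 0.000225 from edgeR). Its shChREBP effects were 0.07 (SE 0.10) in L-G6pc-/- and -0.13 (SE 0.11) in L-G6pc+/+ livers, and neither passed the edgeR test (adjusted p = 0.751 and 0.526).

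The other neighbours held few counts in either genotype. Lsp1, a leukocyte actin-binding protein, held 111 counts in L-G6pc-/- and 74 in L-G6pc+/+ libraries. Mrpl23, a mitochondrial ribosomal protein, held 21 and 15, Tnni2 15 and 33, Ifitm10 16 and 10, and Nctc1, a noncoding RNA 16.9 kb from H19, 2 and 4, each with L-G6pc-/- first. The pooled intervals of H19 and Igf2 were apart between genotypes, and so were those of Ctsd and of Tnnt3, whose 11 counts all came from library s14. Of the 33 L-G6pc+/+ counts of Tnni2, 19 came from s14 too.

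**Figure D2:**
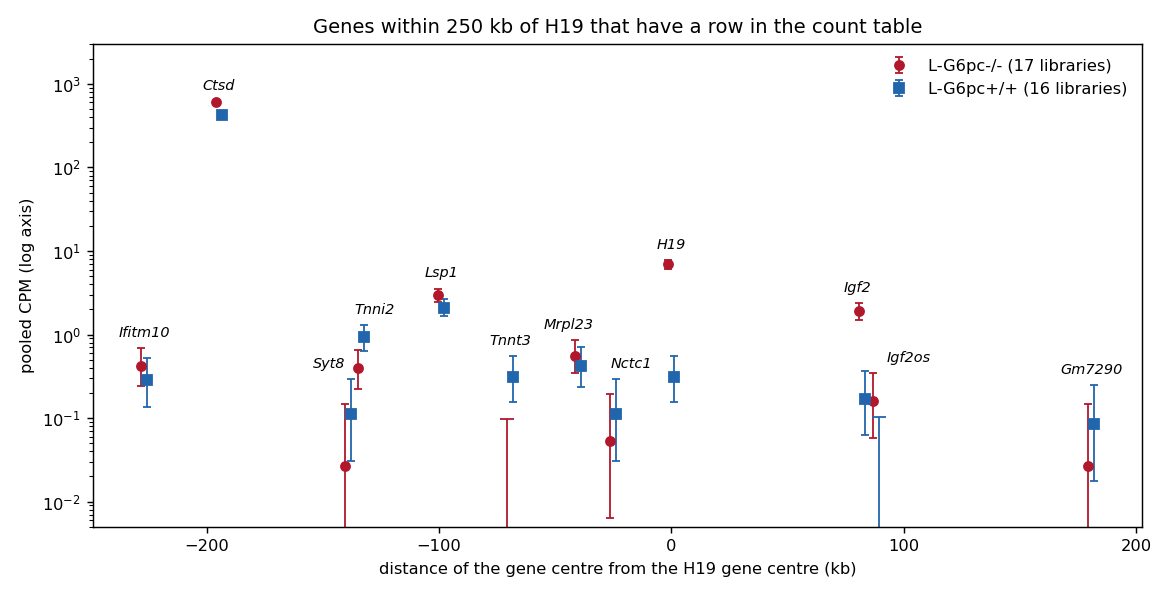
Pooled CPM (vertical log axis, bars are 95% counting intervals) of H19 and the 11 genes within 250 kb of it that have a row in the count table, against the distance of each gene's centre from that of H19 in kb, in 17 L-G6pc-/- (circles) and 16 L-G6pc+/+ libraries (squares); a bar with no symbol is a gene with 0 counts. H19 pools to 6.96 against 0.311 CPM and Igf2 to 1.89 against 0.170 CPM in L-G6pc-/- and L-G6pc+/+ libraries.

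Afp and Gpc3, the classic liver oncofetal proteins, did not share the genotype pattern. Afp encodes alpha-fetoprotein, the fetal counterpart of albumin, and lies at chr5:90490737-90508907. It ran from 1.95 to 8.22 CPM in shChREBP/L-G6pc-/- (median 3.38), 0.902 to 5.01 in shSCR/L-G6pc-/- (1.79), 2.30 to 5.68 in shChREBP/L-G6pc+/+ (2.86) and 0.744 to 3.65 in shSCR/L-G6pc+/+ livers (2.30). All groups overlapped. The pooled ratio of shSCR/L-G6pc-/- over shSCR/L-G6pc+/+ was 1.04 (95% interval 0.649 to 1.65, 37 and 43 counts).

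With shChREBP, the pooled Afp ratio lay above 1 in both genotypes. The ratio of shChREBP over shSCR was 1.81 in L-G6pc-/- livers (1.22 to 2.73, 91 and 37 counts), with 9 of 9 libraries above the shSCR/L-G6pc-/- median, and 1.38 in L-G6pc+/+ livers (0.901 to 2.13, 50 and 43 counts), with 8 of 8 above the shSCR/L-G6pc+/+ median. The lowest of these 8, s9 at 2.30 CPM, equalled that median of 2.30 CPM to the digits given. In L-G6pc-/- livers the 4 libraries that stood apart held 56 of the 91 counts. Without them the log2 ratio was 0.34, against 0.85 with them.

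Gpc3, a cell surface proteoglycan of fetal liver and liver tumours (chrX:52272426-52613950), varied widely within groups. It ran from 1.10 to 3.52 CPM in shChREBP/L-G6pc-/-, 0 to 8.80 in shSCR/L-G6pc-/-, 0 to 6.04 in shChREBP/L-G6pc+/+ and 1.16 to 2.28 in shSCR/L-G6pc+/+ livers. The pooled ratio of shChREBP over shSCR was 2.02 in L-G6pc+/+ livers (1.29 to 3.20, 56 and 33 counts), where 3 libraries, s10, s15 and s16, lay at 5.21 to 6.04 CPM. In L-G6pc-/- livers it was 0.719 (0.469 to 1.10). The ratio of shSCR/L-G6pc-/- over shSCR/L-G6pc+/+ was 1.71 (1.08 to 2.76, 47 and 33 counts), a log2 ratio of 0.78 that was 0.24 without library s20. That of shChREBP/L-G6pc-/- over shChREBP/L-G6pc+/+ lay on the other side of 1, at 0.612 (0.405 to 0.920, 46 and 56 counts). These intervals do not cover the spread between libraries of a group.

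Library s20 was the highest of its 8 shSCR/L-G6pc-/- libraries for 3 of the 9 measured members, Igf2, Gpc3 and Cdkn1c. It was so for 14.5% of the 10179 tested genes. In s20 the stellate cell markers summed to 542 CPM (332 to 429 in the other 7 libraries of its group) and the cholangiocyte markers to 58.8 CPM (22.2 to 39.0). The hepatocyte markers summed to 22547 CPM, inside the range of the others (19620 to 27748). The part of these cells in the Igf2 and Gpc3 counts was not tested.

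Cdkn1c and Grb10 are imprinted restraints on growth, and Plagl1 is imprinted too. Cdkn1c encodes the cyclin-dependent kinase inhibitor p57 and lies 880.2 kb from H19 (chr7:143458339-143461050). It held 72 counts in shChREBP/L-G6pc-/-, 38 in shSCR/L-G6pc-/-, 56 in shChREBP/L-G6pc+/+ and 66 in shSCR/L-G6pc+/+ livers. Its pooled ratios ran from 0.693 (shSCR/L-G6pc-/- over shSCR/L-G6pc+/+, 0.452 to 1.05) to 1.39 (shChREBP over shSCR in L-G6pc-/-, 0.928 to 2.12), and each interval of the 4 comparisons held 1.

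Grb10 encodes an adaptor that dampens insulin receptor signalling (chr11:11930508-12038683). It averaged 4.78 ± 2.08 CPM in shChREBP/L-G6pc-/-, 3.89 ± 1.29 in shSCR/L-G6pc-/-, 3.73 ± 1.33 in shChREBP/L-G6pc+/+ and 5.003 ± 2.20 in shSCR/L-G6pc+/+ livers (SD). Its log2 fold change with shChREBP was 0.29 in L-G6pc-/- (SE 0.28) and -0.44 in L-G6pc+/+ livers (SE 0.28), and the difference of these was 0.72 (SE 0.40, -0.08 to 1.52). Plagl1, a zinc finger transcription factor that regulates other imprinted genes (chr10:13060504-13131694), held 21, 11, 14 and 14 counts in the groups in the same order, and its ratios could not be told from 1 at this depth.

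Peg3, a paternally expressed zinc finger gene (chr7:6703892-6730431), was lower on average with shChREBP, with a 95% interval that left out 0 in L-G6pc-/- livers alone. In L-G6pc-/- livers it averaged 7.82 ± 2.10 CPM with shChREBP (4.31 to 11.01, median 7.77) and 12.5 ± 2.05 CPM with shSCR (10.3 to 15.8, median 12.4; SD). Of 9 shChREBP libraries, 7 lay below the lowest shSCR library. The log2 fold change was -0.69 (SE 0.21, 95% interval -1.11 to -0.26). In L-G6pc+/+ livers Peg3 averaged 7.54 ± 3.37 CPM with shChREBP and 9.75 ± 3.37 CPM with shSCR (SD), a log2 fold change of -0.41 (SE 0.23, -0.86 to 0.05). The difference between genotypes was -0.28 (SE 0.31).

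With G6pc deleted, Peg3 was 0.35 higher on the log2 scale under shSCR (SE 0.21) and 0.07 higher under shChREBP (SE 0.22). Without the 4 libraries that stood apart, its shChREBP effect in L-G6pc-/- livers was -0.59, and over all 44 alternatives it ran from -0.75 to -0.58. Peg3 was called there under 33 of the 44, and not without those 4 libraries.

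Mest, a paternally expressed gene that encodes a hydrolase-like membrane protein (chr6:30723547-30748465), was higher on average with the deletion under both hairpins. It averaged 4.66 ± 1.93 CPM in shChREBP/L-G6pc-/-, 4.75 ± 2.50 in shSCR/L-G6pc-/-, 2.81 ± 1.99 in shChREBP/L-G6pc+/+ and 3.02 ± 1.42 in shSCR/L-G6pc+/+ livers (SD). The log2 fold change of L-G6pc-/- over L-G6pc+/+ was 0.68 with shSCR (SE 0.36, -0.05 to 1.40) and 0.73 with shChREBP (SE 0.36, 0.01 to 1.45), and the groups overlapped. Copg2, an antisense neighbour that overlaps Mest, had its own row, and reads of the pair could not be told apart without strand.

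**Figure D3:**
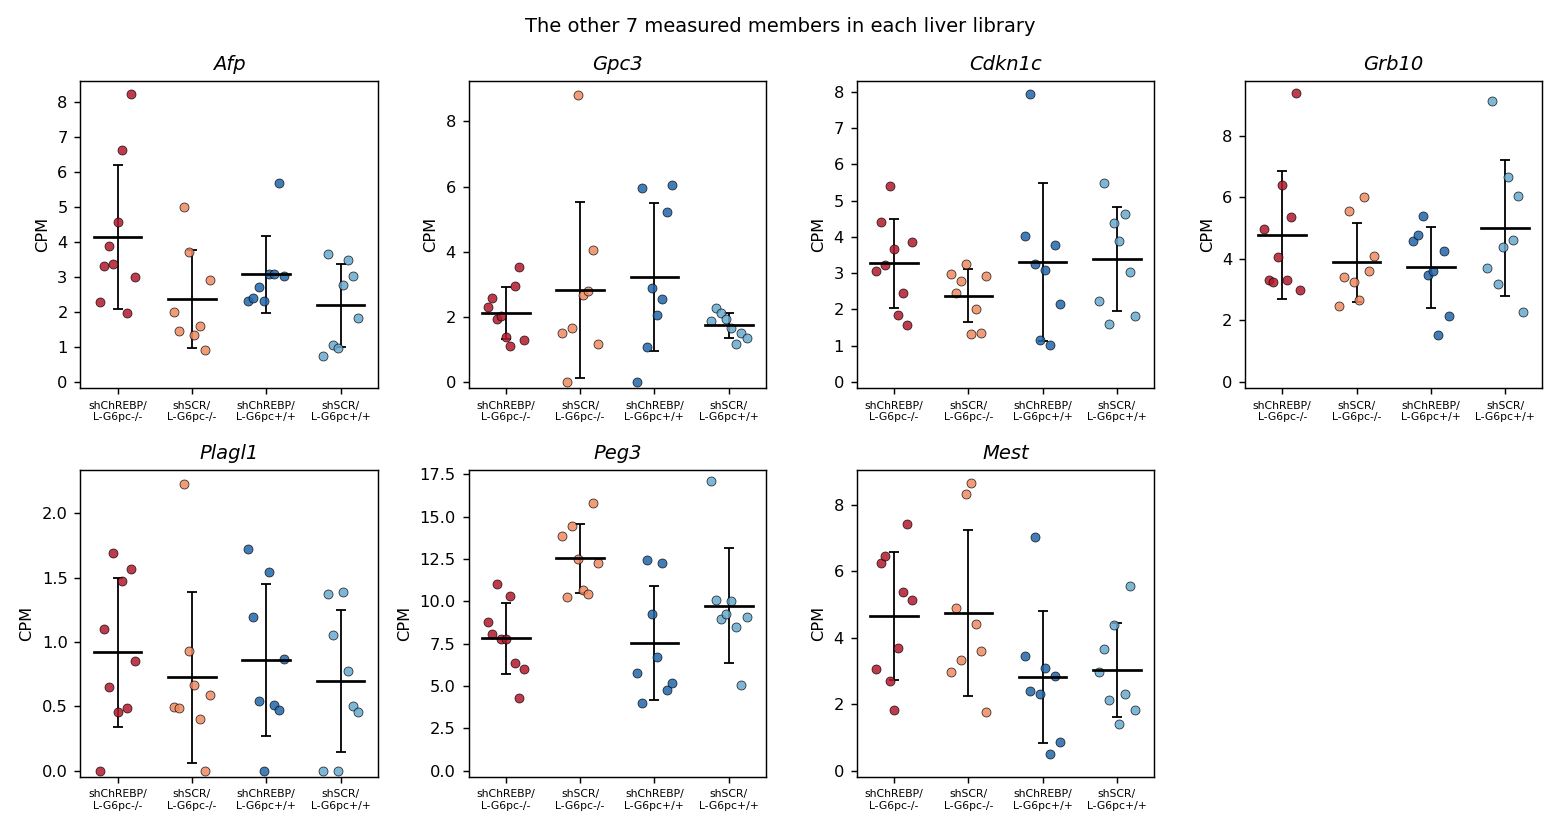
The other 7 measured members in CPM (vertical axes, each with its own scale) for each liver library, by group; points are libraries, the line is the mean and the bar is the SD. The groups overlap for each of the 7 genes, and Peg3 in shChREBP/L-G6pc-/- livers (4.31 to 11.01 CPM) lies mostly below shSCR/L-G6pc-/- livers (10.3 to 15.8 CPM).

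**Figure D4:**
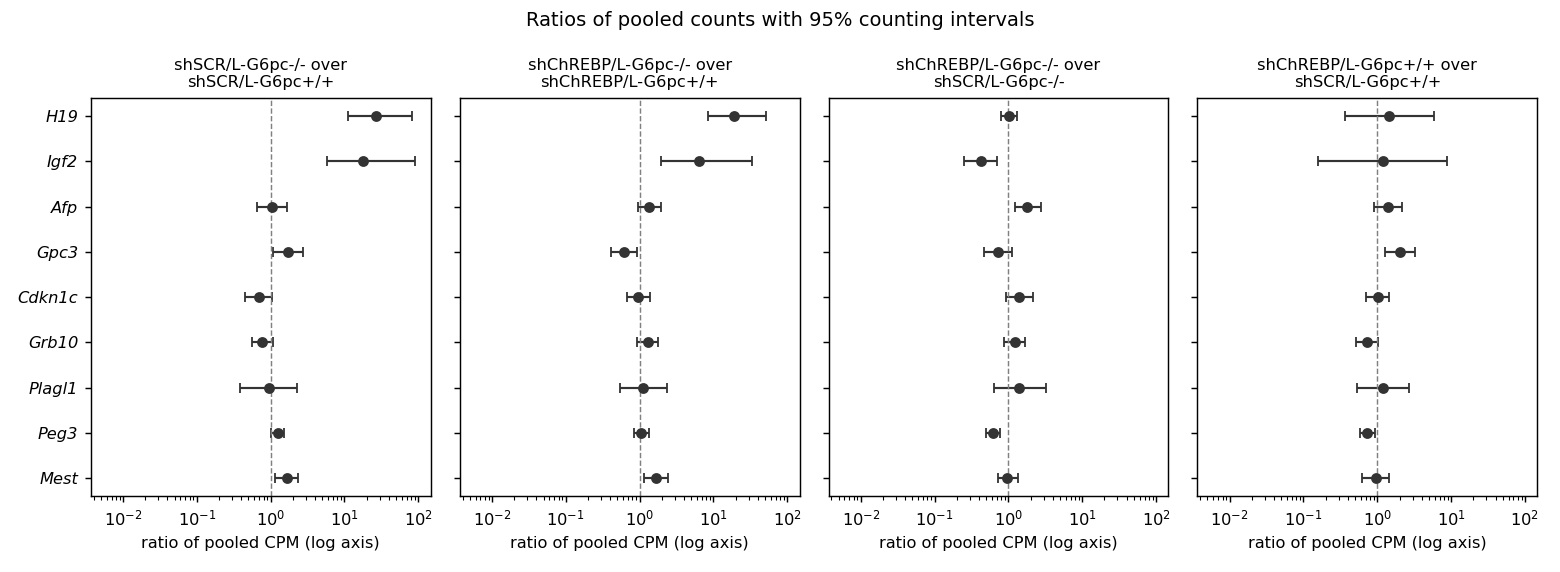
Ratio of pooled CPM (horizontal log axis) of the 9 measured members in 4 comparisons, with 95% exact binomial intervals for counting error; the dashed line marks a ratio of 1. H19 (26.5 and 18.9) and Igf2 (18.1 and 6.45) have the highest ratios of the 9 members in the 2 comparisons between genotypes.

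Among the 4 members past the filter, edgeR called H19 higher in both comparisons of L-G6pc-/- with L-G6pc+/+ livers, where 2.20% (shSCR) and 6.14% (shChREBP) of all tested genes were called higher, and 1.03% and 4.90% lower. Peg3 was called lower with shChREBP in L-G6pc-/- livers, where 4.23% of genes were called lower, 3.33% higher and 7.56% in all. With shChREBP in L-G6pc+/+ livers, 0 of 4 were called by edgeR (5.39% of all genes, 2.16% higher and 3.23% lower), by DESeq2 or by limma-voom, and 0 had an unadjusted p under 0.05. The same counts of 0 held for the difference between genotypes (0.0786% of all genes, 0.0589% higher and 0.0196% lower). CPM ranges that did not overlap were found for 1 member, H19, in each comparison of genotypes, and for 0.756% (shSCR) and 0.727% (shChREBP) of all genes. Between hairpins 0 members had such ranges, against 0.707% of all genes in L-G6pc-/- and 0.865% in L-G6pc+/+ livers. The choice of the members fixed these counts in part, and nothing is read from them.

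When genes with any count were kept, all 9 measured members could be fitted. H19 and Igf2 were called higher in shSCR/L-G6pc-/- over shSCR/L-G6pc+/+ livers (1.24% of 25988 genes were called in either direction), and H19 alone in shChREBP/L-G6pc-/- over shChREBP/L-G6pc+/+ livers (3.84%). With shChREBP over shSCR, edgeR called 0 members in that fit, Peg3 included. The shares of all genes called there were 2.58% in L-G6pc-/- and 1.46% in L-G6pc+/+ livers. For the difference between genotypes 0 members were called (0.0462% of all genes), and nothing is read from these counts.

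No further imprinted gene was called with the deletion under shSCR. A list of 57 other imprinted genes held 50 with a row and 25 past the filter. The list is not limited to genes imprinted in liver, and the copy in use was not measured. In shSCR/L-G6pc-/- over shSCR/L-G6pc+/+ livers 0 of the 25 were called by edgeR (3.23% of all genes were), DESeq2 or limma-voom, with 5 at an unadjusted p under 0.05. The median log2 fold change of the list was -0.02, against 0.00 over all genes. With shChREBP/L-G6pc+/+ over shSCR/L-G6pc+/+ livers 0 were called by any of these tools (edgeR called 5.39% of all genes), with 9 at an unadjusted p under 0.05. For the difference between genotypes 0 were called (0.0786% of all genes by edgeR), with 3 at an unadjusted p under 0.05. The share of all genes at an unadjusted p under 0.05 is not given here, so nothing is read from those counts.

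The most abundant of these in 3' tags was Slc38a4, an amino acid transporter. It averaged 1503 ± 328 CPM in shChREBP/L-G6pc-/-, 1771 ± 471 in shSCR/L-G6pc-/-, 1781 ± 296 in shChREBP/L-G6pc+/+ and 2288 ± 352 in shSCR/L-G6pc+/+ livers (SD). Its log2 fold change was -0.37 in shSCR/L-G6pc-/- over shSCR/L-G6pc+/+ (SE 0.14, adjusted p = 0.181 from edgeR). Dcn (decorin, a stellate cell proteoglycan) and Cd81 (a tetraspanin) came next, at 197 ± 30.7 against 216 ± 20.8 CPM and 172 ± 13.4 against 160 ± 24.6 CPM in shSCR/L-G6pc-/- and shSCR/L-G6pc+/+ livers (SD, n = 8 each), and did not pass the test.

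With shChREBP in L-G6pc-/- livers 2 of the 25 rose and 1 fell, where 3.33% of all genes were called higher and 4.23% lower. Blcap rose by 0.52 (SE 0.14, adjusted p = 0.0176 from edgeR) and Ddc, which encodes aromatic amino acid decarboxylase, by 0.47 (SE 0.14, 0.0272). Ube3a, a ubiquitin ligase that is imprinted in neurons, was at -0.28 (SE 0.09, 0.0404). Each of these log2 fold changes missed the threshold without the 4 libraries that stood apart (adjusted p = 0.499, 0.165 and 0.645), so that the count was 0. The log2 fold changes were then 0.27 for Blcap, 0.47 for Ddc and -0.13 for Ube3a, so that the value of Ddc stayed as large. The call of Blcap was also lost without s32, that of Ddc without s19, s23, s24, s25, s29 or s32, and that of Ube3a without any of 11 single libraries, among them s1, s20 and s32. In shChREBP/L-G6pc-/- over shChREBP/L-G6pc+/+ livers Ddc rose by 0.49 (SE 0.14, adjusted p = 0.0175 from edgeR), and H13, which encodes signal peptide peptidase, was at -0.34 (SE 0.10, 0.0179). These were the only calls of the 25 there, where 6.14% of all genes were called higher and 4.90% lower.

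A list of 28 other genes tied to fetal liver, progenitor cells or liver tumours, 12 of them past the filter, held 2 genes that rose with the deletion under both hairpins, where 2.20% (shSCR) and 6.14% (shChREBP) of all genes were called higher. Both calls in shSCR/L-G6pc-/- over shSCR/L-G6pc+/+ livers, Ly6d and Igf2bp2, were upward, and the same 2 genes were called with shChREBP. The list was written with earlier results of these data known. The p-values of its genes, those of Ly6d and Igf2bp2 below included, cannot be taken as independent of that choice. Its median log2 fold change was 0.27 with shSCR and 0.24 with shChREBP, against 0.00 and -0.01 over all genes. For shChREBP over shSCR it was 0.20 in L-G6pc-/- and 0.29 in L-G6pc+/+ livers (11 of 12 positive), against 0.01 and 0.03 over all genes. With shChREBP over shSCR 0 of the 12 were called by edgeR in L-G6pc-/- (DESeq2 1, limma-voom 0, 3 at an unadjusted p under 0.05) or in L-G6pc+/+ livers (0, 0 and 2), and 0 for the difference between genotypes (0, 0 and 0). Of all genes, edgeR called 7.56%, 5.39% and 0.0786% in these comparisons, in that order. Shares of all genes at an unadjusted p under 0.05, or with a positive log2 fold change, are not given here. Nothing is read from those counts.

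Ly6d, a lipid-anchored surface protein of the Ly6 family, ran from 37.1 to 622 CPM in shChREBP/L-G6pc-/- (median 101), 64.5 to 193 in shSCR/L-G6pc-/- (95.1), 1.74 to 25.6 in shChREBP/L-G6pc+/+ (7.84) and 2.02 to 20.1 in shSCR/L-G6pc+/+ livers (4.16). The genotypes did not overlap with either hairpin. The log2 fold change was 3.94 with shSCR (SE 0.55, adjusted p = 8.34e-06 from edgeR) and 4.61 with shChREBP (SE 0.54, 2.35e-07). The 4 libraries that stood apart were the highest, at 207 to 622 CPM against 37.1 to 101 CPM in the other 5. Without them the value with shChREBP was 2.94 (edgeR adjusted p = 1.50e-05). For shChREBP over shSCR in L-G6pc-/- livers the log2 fold change of Ly6d was 1.18 (edgeR adjusted p = 0.0817) with them and -0.49 (0.648) without them.

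Igf2bp2 encodes an RNA-binding protein whose targets include Igf2 mRNA. It averaged 9.62 ± 3.10 CPM in shChREBP/L-G6pc-/-, 11.2 ± 3.63 in shSCR/L-G6pc-/-, 3.53 ± 2.01 in shChREBP/L-G6pc+/+ and 4.26 ± 1.43 in shSCR/L-G6pc+/+ livers (SD). The log2 fold change of L-G6pc-/- over L-G6pc+/+ was 1.40 with shSCR (SE 0.27, adjusted p = 0.000906 from edgeR) and 1.47 with shChREBP (SE 0.28, 0.000522). The family members Igf2bp1 and Igf2bp3 held 15 and 14 counts over all 33 libraries. The more abundant Aldoa (aldolase A) and Cd44 (a hyaluronan receptor) were at log2 fold changes of 0.23 (SE 0.14) and 0.38 (SE 0.18) with shSCR and did not pass the test (adjusted p = 0.487 and 0.330 from edgeR).

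**Figure D5:**
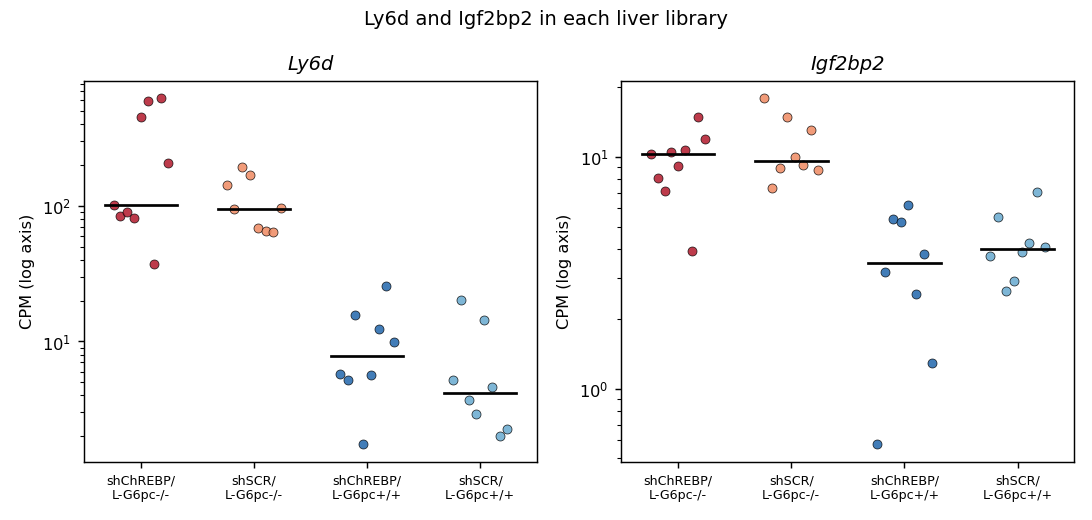
Ly6d (left) and Igf2bp2 (right) in CPM (vertical log axes) for each liver library, by group; points are libraries and the line is the median. Ly6d lies at 37.1 CPM or more in each L-G6pc-/- library and at 25.6 CPM or less in each L-G6pc+/+ library.

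The receptors that bind Igf2 did not pass the test. Igf2r, itself imprinted and a clearing receptor for Igf2, was at 0.36 in shSCR/L-G6pc-/- over shSCR/L-G6pc+/+ livers (log2, SE 0.14, adjusted p = 0.186 from edgeR), and Insr, the insulin receptor, at 0.05 (SE 0.11, 0.897). Igf1r held 87 counts over all libraries and was not tested.

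Regulators of these genes were read in the same fit. Zbtb20 and Zhx2 repress Afp after birth in mouse liver, and Zhx2 also H19 and Gpc3. Zbtb20 averaged 608 ± 38.5 CPM in shSCR/L-G6pc-/- and 623 ± 37.6 CPM in shSCR/L-G6pc+/+ livers, a log2 fold change of -0.04 with a 95% interval of -0.20 to 0.13. Zhx2 averaged 8.20 ± 1.71 and 7.60 ± 1.89 CPM in these groups, a log2 fold change of 0.10 (-0.33 to 0.52). With shChREBP in L-G6pc-/- livers they were at -0.05 (SE 0.08) and -0.08 (SE 0.21). CTCF, which binds the insulator between H19 and Igf2, was at -0.19 for shSCR/L-G6pc-/- over shSCR/L-G6pc+/+ livers (SE 0.11, adjusted p = 0.404 from edgeR) and at 0.15 for shChREBP over shSCR in L-G6pc-/- livers (SE 0.10, 0.423).

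Of 13 regulators tested, those called with the deletion were forkhead factors, which act on liver enhancers, and all were lower. They were Foxa3 under both hairpins and Foxa1 and Foxa2 under shChREBP, where 1.03% (shSCR) and 4.90% (shChREBP) of all genes were called lower. Foxa3 averaged 148 ± 34.9 CPM in shSCR/L-G6pc-/- and 234 ± 59.6 CPM in shSCR/L-G6pc+/+ livers (SD, n = 8 each) and had a log2 fold change of -0.66 (SE 0.17, edgeR adjusted p = 0.0161), the only call of the list there. With shChREBP, Foxa3 fell by 0.62 (adjusted p = 0.00938 from edgeR), Foxa2 by 0.86 (0.02) and Foxa1 by 0.90 (0.0224) in L-G6pc-/- against L-G6pc+/+ livers. The call of Foxa1 was lost without the 4 libraries that stood apart (adjusted p = 0.218) and without s15 or s16, and that of Foxa2 without s12, s15 or s16.

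With shChREBP over shSCR in L-G6pc-/- livers, 1 of the 13 fell, where 4.23% of all genes were called lower. It was Cebpa, a hepatocyte identity factor, which fell by 0.45 (SE 0.13, adjusted p = 0.0319 from edgeR). The call was lost without the 4 libraries that stood apart (log2 fold change -0.41, adjusted p = 0.150) and without s18, s22, s23, s24, s29 or s30. Further log2 fold changes there were -0.39 for Foxa1, -0.07 for Foxa2, 0.02 for Foxa3, -0.02 for Hnf4a, -0.14 for Nr5a2, 0.30 for Dnmt1, 0.03 for Dnmt3a and 0.25 for Trim28. None of these passed the edgeR test. Zfp57 and Uhrf1, which help keep imprints, held 7 and 39 counts in all and were not tested.

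The genes whose log2 CPM was most like that of H19 over the 33 libraries were Apoc2 (Pearson r = 0.88, Spearman rho = 0.78) and Apoa4 (0.85 and 0.74), both apolipoproteins, Gpi1 (0.83 and 0.78), a glycolytic enzyme, Lepr (0.83 and 0.76), the leptin receptor, and Ces2e (0.82 and 0.80), a carboxylesterase. Within the 17 L-G6pc-/- libraries their r with H19 ran from 0.05 to 0.32. The points share library depth and genotype. With shChREBP in L-G6pc-/- livers the log2 fold changes were -1.06 for Apoa4 (SE 0.17), -0.70 for Gpi1 (SE 0.12) and -1.35 for Lepr (SE 0.24), beside 0.20 for Apoc2 (SE 0.12), 0.00 for Ces2e (SE 0.11) and 0.03 for H19 (SE 0.36).

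Markers of other liver cells were summed for each library to stand beside the H19 values. The proliferation genes summed to 44.9 to 374 CPM in shChREBP/L-G6pc-/- (median 124), 30.2 to 104 in shSCR/L-G6pc-/- (59.7), 19.1 to 189 in shChREBP/L-G6pc+/+ (42.6) and 16.4 to 55.5 in shSCR/L-G6pc+/+ livers (23.7). Of 7 tested, 0 were called in shSCR/L-G6pc-/- over shSCR/L-G6pc+/+ livers by edgeR, DESeq2 or limma-voom (5 at an unadjusted p under 0.05), and 6 rose in shChREBP/L-G6pc-/- over shChREBP/L-G6pc+/+ livers. Among all genes, edgeR called 3.23% in either direction with shSCR and 6.14% higher with shChREBP. The share of all genes at an unadjusted p under 0.05 is not given here. The hepatocyte sums were 12955 to 23710, 19620 to 27748, 21242 to 34788 and 28585 to 32088 CPM in the groups in the same order. With shSCR these hepatocyte sums did not overlap between genotypes and were lower in L-G6pc-/- livers, and with shChREBP the ranges overlapped. Alb, the most abundant of the 8 markers, averaged 8297 ± 968 CPM in shSCR/L-G6pc-/- and 14353 ± 844 CPM in shSCR/L-G6pc+/+ livers (SD). In that comparison edgeR called 1 of the 8 lower, where 1.03% of all genes were called lower. The median log2 fold change of the 8 was -0.06, and 3 were positive. Fabp1 averaged 4917 ± 1213 CPM in shSCR/L-G6pc-/- and 3621 ± 756 CPM in shSCR/L-G6pc+/+ livers (SD). Cyp3a11 averaged 1234 ± 274 and 818 ± 322 CPM in these groups (SD), so the lower sum was not shared by all 8 markers. The part of these marker sums in the H19 and Igf2 values was not tested.

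Stellate markers summed to 332 to 542 CPM in shSCR/L-G6pc-/- and 372 to 516 CPM in shSCR/L-G6pc+/+ livers, cholangiocyte markers to 22.2 to 58.8 and 18.6 to 53.9 CPM, endothelial markers to 334 to 483 and 358 to 484 CPM, macrophage markers to 871 to 2149 and 886 to 1591 CPM, and erythroid genes to 880 to 3323 and 424 to 3422 CPM, each with shSCR/L-G6pc-/- first. Each of these 5 ranges overlapped between the genotypes. Their part in the H19 and Igf2 values was likewise not tested.

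Promoter sequence was searched for the E-box CACGTG, the core of the carbohydrate response element that ChREBP binds, which reads the same on both strands. RefSeq windows from 250 bases before to 50 bases after the start were at hand for 8 members (14 windows), and 1 window, of Plagl1, held the motif. The promoters of H19 and Cdkn1c were not searched. Over all 32851 windows 7.15% held it.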

How the data were processed

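Hepatic RNA was measured with 3' QuantSeq libraries from 33 samples in 4 groups. Per the paper's methods and the submitters' notes, single reads of 50 bases were aligned with HISAT to GRCm38 (Ensembl release 82), sorted with SAMtools and counted per gene with HTSeq, with no versions stated, and the authors deposited raw counts. The authors also deposited a normalized table made with voom of limma (unit: signal). It holds 11125 genes, 6 of the members among them, and its linear signal equals the count plus 0.5 over a constant of the library.

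Gene identifiers were named from GENCODE M21 (25817 of 25988). Counts were filtered with filterByExpr (minimum count 10, minimum total 15), scaled by TMM and fitted with edgeR 4.0.16 in R 4.3.3, with all 4 groups in 1 quasi-likelihood model without covariates. Tests were two-sided, with Benjamini-Hochberg adjusted p under 0.05 over all 10179 genes. Library sizes for CPM are those of the filtered genes. Log2 CPM used a prior count of 2. SE is the log2 fold change divided by the square root of F. The fit was tested on simulated data. Low members are given as counts and pooled ratios with 95% exact binomial intervals; 3 counts were taken as the floor.

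The members and gene lists were chosen with earlier results of these data known. Named were all members, listed genes called (up to 6 per comparison) and the 3 most abundant of both gene lists, the regulators for shChREBP in L-G6pc-/-, genes within 250 kb of H19, and the 5 genes most like H19. Alternatives were other scalings, filters and tests (DESeq2 1.42.0, limma 3.58.1), the compared groups alone, and libraries left out. Fold changes and p-values of the authors were not used here. Values of 2 listed genes are not reported here.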

Additional observations from a re-analysis of the deposited data

Results flagged for a closer look

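In each of the 36 sets of libraries formed by 9 members and 4 groups, the highest or lowest library was compared with its nearest neighbour by Dixon's test at the 95% level. Chance flags about 1 in 20 groups, more where counts are few and skewed, and 8 sets had a library far from the others, each time the highest.

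In shSCR/L-G6pc-/- livers library s20 stood at 8.34 CPM for Igf2 (nearest library 3.42) and 8.80 CPM for Gpc3 (nearest 4.06), and library s19 at 2.23 CPM for Plagl1 (nearest 0.927, from 4 counts). In shChREBP/L-G6pc+/+ livers library s14 stood at 2.56 CPM for H19 (nearest 0.515, from 5 counts). In the same group library s15 stood at 5.68 CPM for Afp (nearest 3.09), s10 at 7.95 CPM for Cdkn1c (nearest 4.02) and s11 at 7.03 CPM for Mest (nearest 3.45). In shSCR/L-G6pc+/+ livers library s1 stood at 17.1 CPM for Peg3 (nearest 10.05). The muscle transcripts of s14 and the stellate and cholangiocyte marker sums of s20 are given above, and their part was not tested.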

How the results depend on the processing

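No paired analysis was possible because the replicate numbers s1 to s33 are unique to each library and no 2 groups share them. The members were chosen from results of these same libraries, so their calls below show only how far they depend on the processing. H19 stayed called in both comparisons of genotypes under all 42 alternatives that fitted it, with log2 fold changes of 4.17 to 5.22 (shSCR) and 3.83 to 5.81 (shChREBP). Peg3 stayed lower with shChREBP in L-G6pc-/- livers under all 44 alternatives and was called under 33. The call was lost with library size only, without a filter, without s29, s30, s32 and s33, and without s17, s19, s23, s24, s29, s31, s32 or s33. The log2 ratio of Igf2 in shChREBP/L-G6pc-/- over shChREBP/L-G6pc+/+ livers was 4.03 without s10, and that of shChREBP/L-G6pc+/+ over shSCR/L-G6pc+/+ livers -1.09.

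Counts of genes called moved as follows. Without s29, s30, s32 and s33, 106 genes were called for shChREBP in L-G6pc-/- livers, against 770, and 0 listed imprinted or oncofetal genes against 3. That listed count was 5 with library size only and 0 to 5 with each library left out, being 0 without s32, 1 without s19, s24 or s29 and 5 without s27. For shChREBP in L-G6pc+/+ livers 316 to 626 genes were called with each library left out, against 549 (316 to 365 without s2, s3, s11, s15 or s16), and 0 to 2 listed genes against 0 (2 without s4, 1 without s9). That listed count was 1 with only the 2 compared groups, 1 without s9 and s13, and 1 without s29, s30, s32 and s33. For shChREBP/L-G6pc-/- over shChREBP/L-G6pc+/+ livers 2 listed genes were called with only the 2 compared groups, against 4. For the difference between genotypes 8 genes were called, against 33 with library size only, 76 with DESeq2, 4 with limma-voom, 3 with limma on the deposited values, 19 without s9 and s13, 37 without s29, s30, s32 and s33, and 4 to 16 with each library left out. The cause was not tested. Values that no fit called changed sign in places, among them H19 and Igf2 for shChREBP in L-G6pc+/+ livers. The depth, at which 3 counts are 0.834 to 1.998 CPM, limits statements on H19 and Igf2 in L-G6pc+/+ livers and on Plagl1.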
